A study of Mus musculus with 12 samples.

Results

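Amino acid transporters of the plasma membrane were followed in leukemic cells exposed to CCS1477, an inhibitor of the bromodomains of the histone acetyltransferases p300 and CBP. The set holds 10 genes chosen by name, *Slc7a5*, *Slc3a2*, *Slc1a5*, *Slc1a4*, *Slc7a1*, *Slc7a6*, *Slc7a11*, *Slc38a1*, *Slc38a2* and *Slc43a1*, and all 10 were among the 15651 genes of the expression table. The choice of these genes, and of the lists set beside them, was made with earlier results of these data known. Splenocytes enriched for the receptor c-Kit came from moribund mice with acute myeloid leukemia (AML), 3 *D/F* mice (Dnmt3a fl/fl, Flt3 ITD/ITD, Mx1Cre) and 3 *T/F* mice (Tet2 fl/fl, Flt3 ITD/ITD, Mx1Cre). Cells of each mouse were cultured for 6 hours with DMSO or with CCS1477 at 4 µM in *D/F* and 2 µM in *T/F*, in medium with SCF, IL6 and IL3, which gave 12 RNA-seq libraries in 4 groups of 3. Every mouse carried the Flt3 internal tandem duplication on both alleles and the Mx1Cre transgene. Per the paper, leaky activity of the transgene deleted a single floxed allele or both, without induction. No wild-type cells were among these libraries. Because the dose differed with the genotype, a difference in response between *D/F* and *T/F* cannot be told apart from a difference in dose.

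Amino acids cross the plasma membrane through transporters of the solute carrier (SLC) families. Some bring amino acids in together with sodium, as SLC38A1 does with glutamine. Some exchange one amino acid for another, as the heterodimer of SLC7A5 and SLC3A2 does when it takes up leucine and other large neutral amino acids. Imported leucine and arginine are sensed by the mTORC1 kinase complex, imported cystine supplies glutathione synthesis, and MYC and ATF4 are transcription factors known to act on several of these genes.

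At baseline the 10 transporters differed widely in mRNA level. Levels are given as TPM, an abundance relative to all transcripts of the library and corrected for transcript length, so that genes can be compared within a library. In the *T/F* DMSO libraries the order was *Slc7a5* (192 ± 4.67, mean ± SD, n = 3), *Slc1a5* (179 ± 15.8), *Slc3a2* (152 ± 3.26), *Slc38a2* (129 ± 4.95), *Slc38a1* (119 ± 2.92), *Slc7a1* (82.1 ± 4.43), *Slc7a6* (38.8 ± 4.98), *Slc7a11* (29.9 ± 1.86), *Slc1a4* (7.70 ± 1.75) and *Slc43a1* (7.51 ± 0.932). The libraries of *Slc7a5* and *Slc1a5* overlapped in that order, as did those of *Slc1a4* and *Slc43a1*, and all other neighbours were apart. In the *D/F* DMSO libraries *Slc1a5* was highest at 189 ± 7.45 TPM and *Slc1a4* lowest at 6.39 ± 2.57 TPM, and the 5 highest genes overlapped with their neighbours. The 10 genes together summed to between 592 and 982 TPM in a library. After CCS1477 the order changed in both genotypes: *Slc38a2* stood first in *T/F* at 152 ± 4.34 TPM and second in *D/F* at 170.4 ± 11.4 TPM, where it overlapped with *Slc1a5* at 177 ± 13.0 TPM.

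Both libraries of *D/F* mouse 2 stood apart from the other *D/F* libraries. *Atf4*, which encodes the transcription factor of the amino acid response, was at 150.4 and 181 TPM in this mouse and at 355 to 471 TPM in *D/F* mice 1 and 3. The summed level of 8 neutrophil markers was 2739 TPM (DMSO) and 1669 TPM (CCS1477) in this mouse, against 6316 to 9472 TPM in the other 4 *D/F* libraries, and *Kit* with DMSO was 149 TPM against 50.5 and 60.9 TPM. Each gene was tested with limma on log2(TPM + 1), and passed if its p was under 0.05 after adjustment over the whole table, which 6.51% of 15501 genes did as lower with CCS1477 in *D/F* and 17.6% of 15256 genes in *T/F*. Of 5 progenitor markers (*Kit*, *Flt3*, *Cd34*, *Mpo* and *Myb*), all were present in every library, and their sum was lower with CCS1477. In *D/F* the sum ranged over 2210 to 4176 TPM (DMSO) and 488 to 1722 TPM (CCS1477), and the *T/F* ranges were 1812 to 2593 TPM and 711 to 1221 TPM. *Mpo* made up most of the sum in every library, at 1163 to 3673 TPM in *D/F* with DMSO. *D/F* mouse 2 had the lowest DMSO sum, although its *Kit*, *Flt3*, *Cd34* and *Myb* were the highest of the *D/F* DMSO libraries. *Myb* passed as lower in *D/F*, and *Kit*, *Mpo* and *Myb* did in *T/F*. With the mouse as a block all 5 passed as lower in both genotypes. Of the 8 neutrophil markers, *Retnlg* passed as lower in *D/F*, and *Cxcr2* and *Mmp8* did in *T/F*. With the block *Camp*, *Cxcr2*, *Mmp8* and *Retnlg* passed as lower in both genotypes, beside the same shares. *Ngp* passed as higher in *T/F* with the block, as did 31.2% of all genes. Among markers of other cells, 6 of 7 macrophage markers were in the table, and their sum went from 145 to 183 TPM with DMSO to at most 14.0 TPM with CCS1477 in *D/F*, and from 289 to 409 TPM to 45.6 to 65.1 TPM in *T/F*, while *C1qb* and *C1qc* reached at most 6.19 and 4.49 TPM in any library. *Ccr2* made up most of the macrophage sum in every DMSO library, at 99.4 to 142 TPM in *D/F* and 241 to 341 TPM in *T/F*. The fall of that sum was therefore mainly the fall of *Ccr2*. Of the macrophage markers tested, 5 of 5 passed as lower in *D/F* and 4 of 6 in *T/F*. The sum of 4 mast cell and basophil markers went from 89.5 to 183 TPM with DMSO to 18.8 to 44.0 TPM with CCS1477 in *D/F* and from 42.5 to 81.0 TPM to 19.2 to 38.6 TPM in *T/F*. Sums reached at most 211 TPM for 4 megakaryocyte markers, in the DMSO library of *D/F* mouse 2, 24.8 TPM for 6 erythroid markers, 22.8 TPM for the 1 B cell marker in the table and 25.7 TPM for 3 T cell markers. The part of these marker changes in the transporter levels was not tested, and in bulk RNA fewer cells of a type and less RNA per cell cannot be told apart. *Dnmt3a* mRNA was 29.3 to 55.7 TPM in *D/F* and 39.9 to 57.2 TPM in *T/F*, and *Tet2* mRNA was 24.6 to 35.8 TPM in *T/F* and 32.5 to 43.4 TPM in *D/F*, gene totals that overlapped between the genotypes and do not resolve the floxed exons.

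Most of the 10 transporters were lower with CCS1477, and *Slc38a2* was higher. In *T/F* cells 7 of the 10 fell (*Slc7a5*, *Slc3a2*, *Slc7a6*, *Slc43a1*, *Slc7a1*, *Slc1a5* and *Slc38a1*), against 17.6% of all 15256 genes tested, and 1 rose (*Slc38a2*), against 25.8%. In *D/F* cells 3 of the 10 fell (*Slc7a6*, *Slc43a1* and *Slc38a1*), against 6.51% of 15501 genes, and 0 rose, against 5.14%. At an unadjusted limma p under 0.05, 1 (*Slc38a2*) was higher and 4 were lower, while 4712 of the 15501 genes differed in either direction. In *D/F* the 10 genes had a median log2 difference of -0.48, beside 0.06 over all genes tested, and in *T/F* one of -0.73, beside 0.07. In each of the 6 mice 7 transporters were lower with CCS1477, a pattern that 24.2% of all genes showed, and *Slc38a2* was higher in each of the 6, as were 31.8% of all genes. Treatment groups did not overlap for 4 transporters lower and 1 higher in *D/F*, beside 16.7% and 19.9% of all genes, and for 8 lower and 1 higher in *T/F*, beside 22.6% and 33.5%. Passing also by more than 2-fold were *Slc38a1* and *Slc43a1* in *D/F* (4.61% of all genes fell so far) and *Slc7a1* and *Slc43a1* in *T/F* (4.70%).

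The mouse was not a term of that test. With the mouse as a block, the *D/F* counts were 5 lower (*Slc7a5*, *Slc7a1*, *Slc7a6*, *Slc38a1* and *Slc43a1*) and 1 higher (*Slc38a2*), beside 18.0% and 21.4% of all genes, and the *T/F* counts were 8 lower (*Slc7a11* was added) and 1 higher, beside 22.9% and 31.2%. The *D/F* calls were lost with fewer mice while the differences stayed near their size. Without mouse 1, and likewise without mouse 3, 0 of the 10 and 0 genes in the whole table passed limma in *D/F*. There 2494 and 2330 genes were at an unadjusted p under 0.05. With the block 3 of the 10 passed as lower without mouse 1, as did 1089 of 15539 genes tested. Without mouse 3, 0 of the 10 and 0 genes in the whole table passed with the block. The *D/F* log2 differences without mouse 1 and without mouse 3 were -1.23 and -1.22 for *Slc38a1*, -0.94 and -0.94 for *Slc7a6*, and -1.56 and -1.65 for *Slc43a1*. Without mouse 2, the mouse that stood apart, 4 of the 10 passed as lower: *Slc7a6*, *Slc43a1*, *Slc38a1* and *Slc7a1*, the last at a limma adjusted p of 0.0440. Of all 15191 genes tested in that fit, 1647 passed as lower and 2092 as higher.

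**Figure D1:**
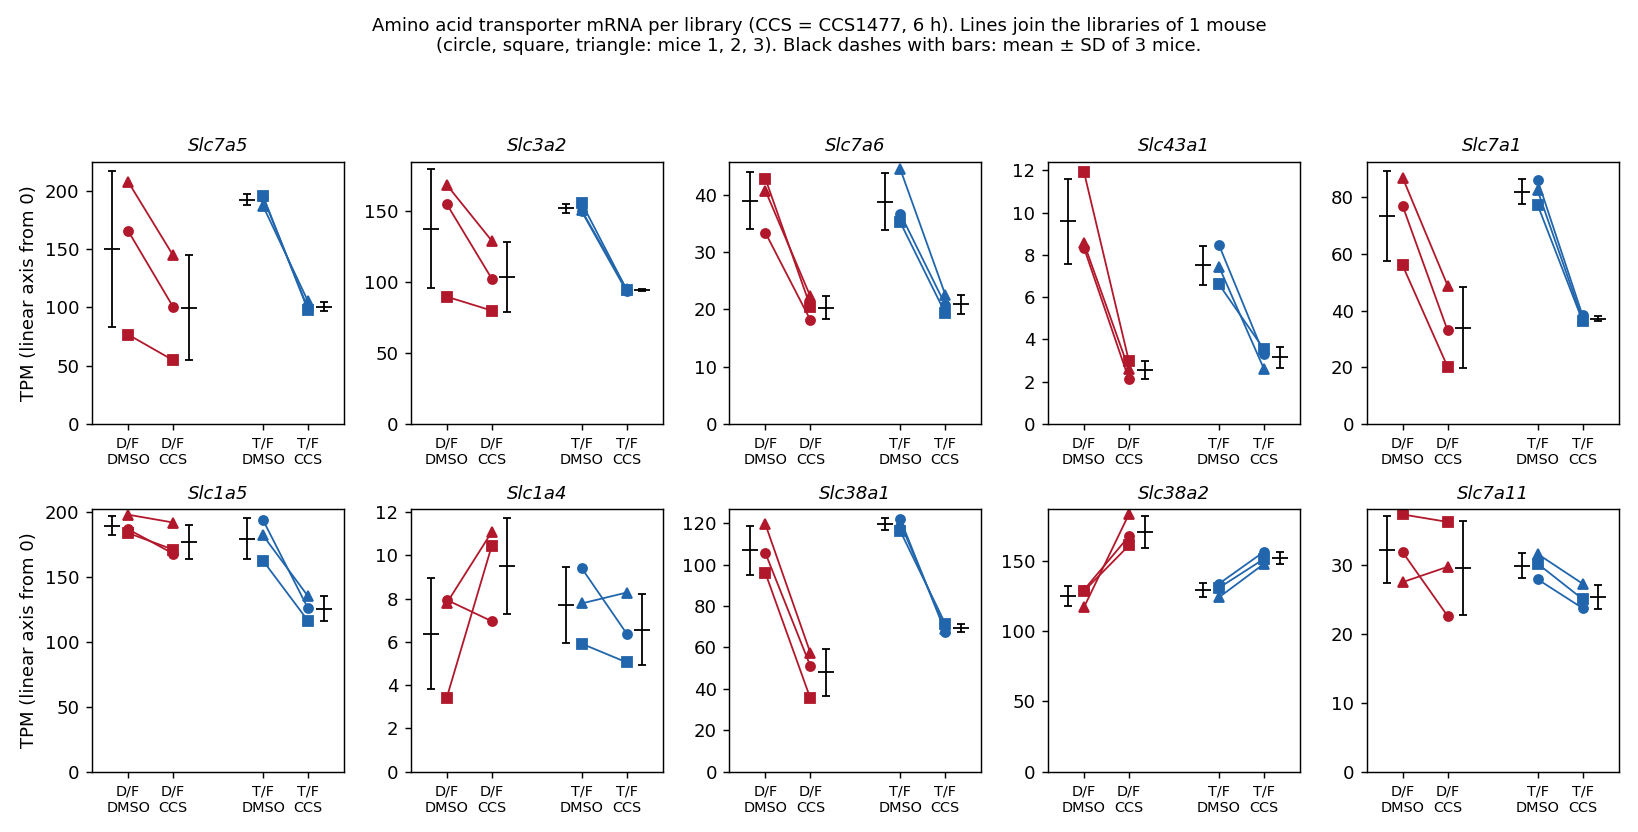
Level of each transporter in every library, in TPM on linear axes that start at 0, with lines joining the DMSO and CCS1477 libraries of a mouse and black dashes with bars for the mean ± SD of 3 mice. *Slc7a6*, *Slc43a1*, *Slc7a1* and *Slc38a1* drop in every mouse with no overlap between treatments, *Slc38a2* climbs in every mouse, and the square of *D/F* mouse 2 lies lowest for *Slc7a5* and *Slc3a2*.

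The promoters of the transporters were read from RefSeq on GRCm38.p6 and searched on both strands for CACGTG (the E-box bound by MYC), TTGCATCA and TGATGNAAN (elements of C/EBP and ATF factors) and TGACNNNGC (the antioxidant element bound by NRF2), where N is any base. TGATGNAAN can overlap the reverse complement of TTGCATCA, so these 2 are not separate matches. Windows of 300 bases, 250 before and 50 after the start, were found for 7 of the 10 genes, all but *Slc7a5*, *Slc1a5* and *Slc38a1*. For *Slc3a2* and a window of *Slc7a6*, the bases after the start were not found near the 5′ end of an annotated transcript. Of the 250 upstream bases, annotated exons covered 169 for *Slc3a2*, 124 for *Slc43a1*, 64 for another *Slc7a6* window and all 250 for another *Slc7a1* window. CACGTG was in 1 of the 7 (*Slc43a1*) and in 7.15% of 32851 promoters. TTGCATCA was in 2 (*Slc7a11* and *Slc1a4*) and in 0.89%, TGATGNAAN in the same 2 and in 3.95%, and TGACNNNGC in 4 (*Slc38a2*, *Slc43a1*, *Slc7a1* and *Slc7a6*) and in 12.4%. Among the 10622 genes of the table with a window, counted per gene as the members were, the shares were 11.3% for CACGTG, 0.83% for TTGCATCA, 2.96% for TGATGNAAN and 16.8% for TGACNNNGC. A match describes letters and is not a measured site. The upstream sequences of 3 genes are shown, 5′ to 3′ with matched letters in capitals, for a gene that fell (*Slc7a1*), one that rose (*Slc38a2*) and one that changed little (*Slc7a11*). They end before the first annotated exon, and no other GENCODE exon lies in them.
Slc7a1, chr5:148399905-148400154, reverse strand: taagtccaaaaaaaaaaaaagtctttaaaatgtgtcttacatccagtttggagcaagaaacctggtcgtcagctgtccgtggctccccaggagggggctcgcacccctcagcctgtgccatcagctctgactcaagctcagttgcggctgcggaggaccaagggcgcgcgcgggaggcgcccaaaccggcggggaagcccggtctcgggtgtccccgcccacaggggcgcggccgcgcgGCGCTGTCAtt
Slc38a2, chr15:96699731-96699978, reverse strand: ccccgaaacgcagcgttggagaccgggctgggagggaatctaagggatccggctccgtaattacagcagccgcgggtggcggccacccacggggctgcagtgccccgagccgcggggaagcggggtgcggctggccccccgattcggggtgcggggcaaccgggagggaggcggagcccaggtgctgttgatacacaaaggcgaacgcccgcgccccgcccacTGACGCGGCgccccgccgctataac
Slc7a11, chr3:50443615-50443863, reverse strand: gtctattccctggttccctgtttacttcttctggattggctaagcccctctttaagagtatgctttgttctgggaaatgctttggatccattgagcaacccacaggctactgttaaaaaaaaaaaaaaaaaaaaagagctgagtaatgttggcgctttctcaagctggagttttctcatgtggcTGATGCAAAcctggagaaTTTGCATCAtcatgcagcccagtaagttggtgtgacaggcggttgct

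In *Slc7a1* the capitals mark TGACNNNGC on the opposite strand, 11 bases before the RefSeq start, and in *Slc38a2* they mark it on the gene's own strand, 27 bases before the start. In *Slc7a11* they mark a pair of C/EBP-ATF matches in opposite orientation, 66 and 48 bases before the start. *Slc7a1*, which fell, and *Slc38a2*, which rose, both hold TGACNNNGC.

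*Slc7a5* (ENSMUSG00000040010; chr8:121881150-121907694, reverse strand, GRCm38) encodes LAT1, the light chain that carries leucine and other large neutral amino acids. With DMSO the *T/F* libraries of mice 1, 2 and 3 held 194, 196 and 187 TPM, and with CCS1477 they held 98.9, 97.6 and 105 TPM. The *T/F* groups were far apart, and the CCS1477 level was 52.3% ± 3.40 (SD, n = 3 mice) of the DMSO level in the same mouse. The log2 difference was -0.93 (SE 0.06, limma adjusted p = 0.000457). In *D/F* the libraries held 166, 76.7 and 208 TPM with DMSO and 100.4, 54.7 and 145 TPM with CCS1477. Each *D/F* mouse was lower with the drug, keeping 67.2% ± 5.74 of its DMSO level, but mice differed more from each other than the treatments did and the groups overlapped. The *D/F* log2 difference of -0.57 (SE 0.48) did not pass (limma adjusted p = 0.470), and it passed with the mouse as a block (adjusted p = 0.0169). Without mouse 2 the *D/F* log2 difference was -0.62 (limma adjusted p = 0.126).

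*Slc3a2* (ENSMUSG00000010095; chr19:8706882-8723369, reverse strand) encodes 4F2hc (CD98), the heavy chain that brings SLC7A5, SLC7A6 and SLC7A11 to the cell surface. The *T/F* libraries held 149.7, 156 and 150.4 TPM with DMSO and 93.4, 94.6 and 94.9 TPM with CCS1477. These groups did not overlap, at a log2 difference of -0.68 (SE 0.06, limma adjusted p = 0.000672). The *D/F* libraries held 155, 89.7 and 168 TPM with DMSO and 102, 79.9 and 129 TPM with CCS1477. Mouse 2 was lowest under both treatments, and the groups overlapped. The *D/F* log2 difference was -0.38 (SE 0.30, limma adjusted p = 0.440) and did not pass with the block either (adjusted p = 0.0671). Without mouse 2 it was -0.49 (limma adjusted p = 0.0935).

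The levels of *Slc7a5* and *Slc3a2* followed each other across the 12 libraries, with a Pearson r of 0.967 on log2(TPM + 1), a description of libraries that share mice and treatments. Within a library the ratio of *Slc7a5* to *Slc3a2* TPM was 1.27 ± 0.0289 with DMSO and 1.07 ± 0.0385 with CCS1477 in *T/F*, and 1.05 ± 0.190 and 0.928 ± 0.222 in *D/F*. The ratio was lower with the drug in each of the 6 mice, so the light chain went down further than its heavy chain. This ratio and that of *Slc38a2* to *Slc38a1*, further on, were chosen after the values were seen and carry no test.

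*Slc7a6* (ENSMUSG00000031904; chr8:106168857-106198706, forward strand) encodes y+LAT2, another light chain of SLC3A2, which exchanges cationic for neutral amino acids. The *D/F* libraries held 33.4, 42.8 and 40.8 TPM with DMSO and 18.2, 20.5 and 22.3 TPM with CCS1477. The *T/F* libraries held 36.7, 35.2 and 44.5 TPM with DMSO and 20.8, 19.3 and 22.6 TPM with CCS1477. Each mouse lost a similar share, with 52.3% ± 3.83 of the DMSO level kept in *D/F* and 54.1% ± 3.03 in *T/F*. This was a log2 difference of -0.90 in *D/F* (SE 0.17, limma adjusted p = 0.0242) and -0.86 in *T/F* (SE 0.11, adjusted p = 0.00240). The responses differed between the genotypes by 0.05, with a 95% confidence interval from -0.38 to 0.47.

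*Slc43a1* (ENSMUSG00000027075; chr2:84838850-84863594, forward strand) encodes LAT3, a facilitator of branched-chain amino acids that needs no heavy chain. Its mRNA was low, at 8.33, 11.9 and 8.55 TPM with DMSO and 2.11, 2.96 and 2.58 TPM with CCS1477 in *D/F*. In *T/F* it was at 8.47, 6.61 and 7.45 TPM with DMSO and 3.29, 3.54 and 2.61 TPM with CCS1477. This was the deepest fall of the 10 in *D/F*, where 26.8% ± 2.97 of the DMSO level was kept, and *T/F* mice kept 42.5% ± 9.75. CCS1477 and DMSO differed by -1.57 on the log2 scale in *D/F* (SE 0.19, limma adjusted p = 0.00884) and -1.04 in *T/F* (SE 0.12, adjusted p = 0.00186), on a scale that understates the fall of low genes.

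*Slc7a1* (ENSMUSG00000041313; chr5:148327410-148399904, reverse strand) encodes CAT1, the main carrier of arginine and lysine in many cells. The *T/F* libraries held 86.2, 77.4 and 82.5 TPM with DMSO and 38.3, 36.4 and 37.0 TPM with CCS1477. In *D/F* they held 77.0, 56.0 and 87.0 TPM with DMSO and 33.0, 20.2 and 48.9 TPM with CCS1477. Groups did not overlap in either genotype, and *D/F* mice kept 45.0% ± 10.3 of the DMSO level and *T/F* mice 45.4% ± 1.42. *Slc7a1* fell by 1.12 on the log2 scale in *T/F* (SE 0.07, limma adjusted p = 0.000398). In *D/F* it was as large, at -1.15, but the spread between mice was wider (SE 0.34, limma adjusted p = 0.0782), and it passed with the mouse as a block (adjusted p = 0.0101).

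**Figure D2:**
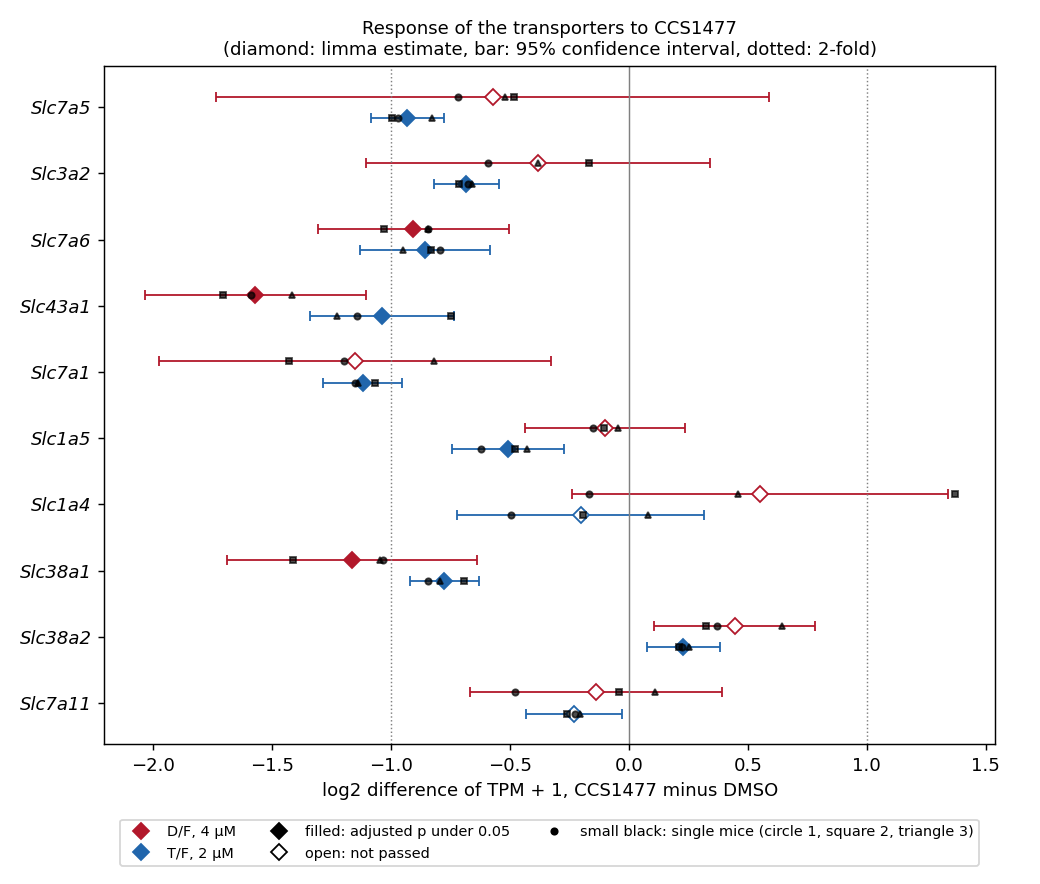
Log2 difference of TPM + 1 between CCS1477 and DMSO for each transporter in *D/F* and *T/F*, as limma's estimate with its 95% confidence interval, with small black symbols for single mice and filled diamonds where the adjusted p was under 0.05. Intervals are wider in *D/F* than in *T/F* for all 10 genes, and *Slc1a5* lies at -0.10 in *D/F* and at -0.51 in *T/F*.

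Of the sodium-dependent exchangers of small neutral amino acids, *Slc1a5* passed as lower in *T/F* and *Slc1a4* passed in neither genotype. They were not tested against each other. *Slc1a5* (ENSMUSG00000001918; chr7:16781340-16798274, forward strand) encodes ASCT2, a glutamine importer. Its *T/F* libraries held 193, 162 and 182 TPM with DMSO and 126, 116 and 135 TPM with CCS1477, without overlap. In *D/F* it held 187, 184 and 198 TPM with DMSO and 168, 171 and 192 TPM with CCS1477. Each *D/F* mouse was slightly lower with the drug, yet the groups overlapped. The *T/F* log2 difference was -0.51 (SE 0.10, limma adjusted p = 0.00822, and 0.0762 without mouse 1). The *D/F* log2 difference was -0.10, with a 95% confidence interval from -0.44 to 0.24 (limma adjusted p = 0.678), and it was 0.06 under quantile normalization.

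*Slc1a4* (ENSMUSG00000020142; chr11:20302180-20332713, reverse strand) encodes ASCT1, which carries serine, alanine and cysteine. The *D/F* libraries held 7.94, 3.43 and 7.80 TPM with DMSO and 6.96, 10.4 and 11.1 TPM with CCS1477, and the *T/F* libraries held 9.41, 5.92 and 7.78 TPM with DMSO and 6.38, 5.06 and 8.28 TPM with CCS1477. It was higher with CCS1477 in 3 mice and lower in 3, and groups overlapped in both genotypes. The log2 difference was 0.55 in *D/F* (95% confidence interval -0.24 to 1.34, limma adjusted p = 0.309) and -0.20 in *T/F* (-0.72 to 0.31, adjusted p = 0.474). *D/F* mouse 2, with the lowest DMSO value, had the largest increase, and without it the *D/F* log2 difference was 0.14 (adjusted p = 0.673).

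The sodium-coupled importers of the SLC38 family went in opposite directions. *Slc38a1* (ENSMUSG00000023169; chr15:96571418-96642913, reverse strand) encodes SNAT1, a carrier of glutamine and other small neutral amino acids. It held 106, 95.9 and 119 TPM with DMSO and 51.0, 35.4 and 57.4 TPM with CCS1477 in *D/F*, and 122, 116 and 120.0 TPM with DMSO and 67.6, 71.4 and 68.9 TPM with CCS1477 in *T/F*. Every CCS1477 library was below every DMSO library of its genotype. These are log2 differences of -1.16 in *D/F* (SE 0.22, limma adjusted p = 0.0252) and -0.78 in *T/F* (SE 0.06, adjusted p = 0.000592).

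*Slc38a2* (ENSMUSG00000022462; chr15:96687392-96699730, reverse strand) encodes SNAT2, a carrier of similar substrates that is known to increase when cells lack amino acids, and lies near *Slc38a1* on the same strand. The *D/F* libraries held 129, 128 and 117 TPM with DMSO and 167, 161 and 183 TPM with CCS1477. In *T/F* it was at 134, 131 and 124 TPM with DMSO and at 156, 151 and 148 TPM with CCS1477. Groups did not overlap in either genotype, and *D/F* mice reached 137% ± 17.0 of their DMSO level and *T/F* mice 117% ± 1.74. On the log2 scale the difference was 0.45 in *D/F* (SE 0.14, limma adjusted p = 0.0894, and 0.0373 with the mouse as a block, a call lost without any 1 mouse) and 0.23 in *T/F* (SE 0.06, adjusted p = 0.0292). Over both genotypes, with 6 libraries for each treatment, *Slc38a2* rose by a log2 difference of 0.34 (SE 0.07, limma adjusted p = 0.00227). The *T/F* call was not kept without mouse 1, 2 or 3 (adjusted p = 0.143, 0.153 and 0.0898), nor when libraries were rescaled to their median gene (0.230).

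Within a library the ratio of *Slc38a2* to *Slc38a1* TPM was near 1 with DMSO and well above it with CCS1477. It went from 1.18 ± 0.184 to 3.67 ± 0.752 in *D/F* and from 1.08 ± 0.0473 to 2.19 ± 0.107 in *T/F*, and each of the 6 mice moved the same way.

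**Figure D3:**
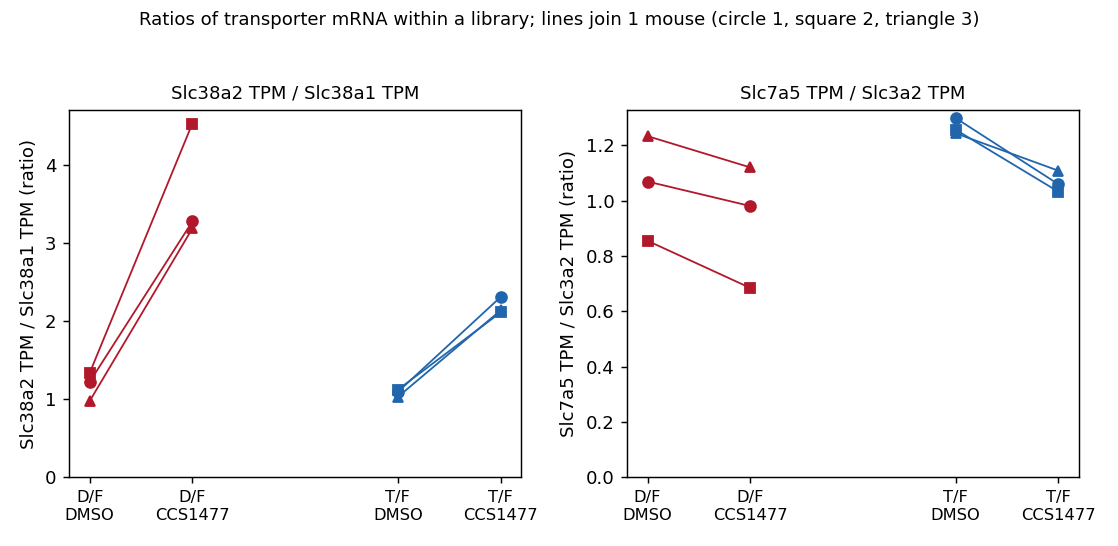
Ratio of *Slc38a2* to *Slc38a1* TPM and of *Slc7a5* to *Slc3a2* TPM in each library, with lines joining the libraries of a mouse and axes that start at 0. The first ratio rises in all 6 mice, to between 2.12 and 4.54, and the second goes down in all 6.

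*Slc7a11* (ENSMUSG00000027737; chr3:49892526-50443614, reverse strand) encodes xCT, the exchanger that imports cystine for glutamate. Its *D/F* libraries held 31.9, 37.4 and 27.5 TPM with DMSO and 22.6, 36.3 and 29.8 TPM with CCS1477, and the groups overlapped. The *T/F* libraries held 27.9, 30.2 and 31.6 TPM with DMSO and 23.8, 25.1 and 27.3 TPM with CCS1477, and the groups lay just apart. The log2 difference was -0.14 in *D/F* (95% confidence interval -0.67 to 0.39, limma adjusted p = 0.722). In *T/F* it was -0.23 (-0.43 to -0.03, limma adjusted p = 0.0669, and 0.0218 with the mouse as a block). It also passed in *T/F* with a filter at 5 TPM (adjusted p = 0.0494), after median rescaling (0.0124) and under quantile normalization (0.0220).

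In a fit over both genotypes that adjusted for genotype, 7 of the 10 passed lower and 1 higher, beside 19.6% and 25.8% of 15583 genes, and they were the genes that passed in *T/F*. *Slc7a1* (log2 difference -1.13, limma adjusted p = 0.000390), *Slc7a6* (-0.88, 2.47e-05), *Slc38a1* (-0.97, 9.04e-05) and *Slc43a1* (-1.30, 2.29e-05) passed whichever mouse was left out. *Slc7a5* (-0.75, adjusted p = 0.0345), *Slc3a2* (-0.53, 0.0188) and *Slc1a5* (-0.30, 0.0207) did not pass in limma without *T/F* mouse 1 (0.105, 0.0696 and 0.0946), mouse 2 (0.108, 0.0726 and 0.0691) or mouse 3 (0.0944, 0.0673 and 0.0772). Without *D/F* mouse 1, *Slc7a5* and *Slc3a2* were at an adjusted p of 0.0761 and 0.0536.

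Whether the responses differed between *D/F* and *T/F* was tested as an interaction. In limma 0 of the 10 transporters and 0 of 15583 genes passed, with or without the mouse as a block. Without the block 659 genes had an unadjusted p under 0.05, and with it 2293 did. The order, intervals and p-values of the interaction given next are from the fit without the block. The interaction was closest for *Slc1a5*, whose log2 difference was lower in *T/F* by -0.41 (95% confidence interval -0.74 to -0.08, unadjusted p = 0.0202, limma adjusted p = 1.000), and next for *Slc43a1*, whose fall was smaller in *T/F* by 0.53 (0.03 to 1.03, unadjusted p = 0.0405). For *Slc7a5* the difference was -0.36 with an interval from -1.54 to 0.83, which is wider than the response itself. The mouse is not a term of this fit, so the interval also holds differences in level between mice. Within single mice the *Slc7a5* log2 differences ran from -0.7163 to -0.4801 in *D/F* and from -0.9956 to -0.8248 in *T/F*. These ranges did not overlap, although the interaction did not pass with the block either. The same held for *Slc3a2*, *Slc1a5*, *Slc38a1*, *Slc38a2* and *Slc43a1*, and the share of all genes with such ranges was not counted. Between the genotypes 0 of the 10 passed under DMSO, where 0.0328% of 15265 genes did, and 0 under CCS1477, where 0.0329% of 15199 did. At an unadjusted limma p under 0.05 were 0 and 2 of the 10, beside 939 and 1643 of these genes. With CCS1477 *Slc1a5* was lower in *T/F* than in *D/F* by a log2 difference of -0.49 (limma adjusted p = 0.244) and *Slc38a1* higher by 0.55 (adjusted p = 0.383).

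Other genes of amino acid transport and use were counted in lists, to be read beside the shares of all genes that passed: 17.6% lower and 25.8% higher in *T/F*, 6.51% and 5.14% in *D/F*, and 18.0% and 21.4% in *D/F* with the mouse as a block. Of 40 other plasma membrane transporters 18 were in the table. In *T/F* 4 of these fell and 1 rose, and in *D/F* 2 fell and 0 rose, with list medians of -0.19 and -0.09. The 4 of 18 lower in *T/F* is a share near that of all genes. *Slc6a12*, a betaine and GABA carrier, went from 3.12 ± 1.20 to 0.0829 ± 0.0446 TPM in *D/F* (log2 difference -1.89, limma adjusted p = 0.00873) and from 4.95 ± 1.92 to 0.761 ± 0.499 TPM in *T/F* (-1.74, 0.00653, and 0.0674 without mouse 1). *Slc6a6*, the taurine carrier, went from 62.5 ± 5.27 to 34.8 ± 2.19 TPM in *D/F* (-0.82, limma adjusted p = 0.0217) and from 70.3 ± 7.71 to 42.4 ± 4.84 TPM in *T/F* (-0.72, 0.00572). Passing in *T/F* and not in *D/F*, *Slc7a7*, a further light chain of SLC3A2, fell by 0.81 (limma adjusted p = 0.00431, and 0.0531 without mouse 2), *Slc16a10*, a carrier of aromatic amino acids, fell by 0.72 (0.00155), and *Slc38a11* rose by 0.32 (0.0416), a call lost with the block (0.0750) and without mouse 1 or 2 (0.222 and 0.185). In *D/F* these 3 were at -0.71 (limma adjusted p = 0.0504, and 0.00967 with the block), -0.37 (0.215 and 0.0514) and 0.33 (0.304 and 0.0628), and the difference between the genotypes did not pass for any of them.

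Of 10 lysosomal transporters 3 rose and 2 fell in *T/F*, 1 rose in *D/F*, and 3 rose and 3 fell in *D/F* with the mouse as a block. In *T/F* these counts were near the shares of all genes (25.8% higher and 17.6% lower). *Pqlc2*, which exports cationic amino acids from the lysosome, rose from 6.31 ± 0.891 to 13.4 ± 1.15 TPM in *D/F* (log2 difference 0.99, limma adjusted p = 0.0179) and from 8.09 ± 0.801 to 12.9 ± 2.26 TPM in *T/F* (0.60, 0.0149, and 0.0977 without mouse 1). *Slc38a9*, the lysosomal arginine sensor of mTORC1, rose in *T/F* by 0.53 (limma adjusted p = 0.00276, and 0.0510 without mouse 2). *Slc36a1*, a proton-coupled exporter of small amino acids, fell there by 0.63 (0.0143, and 0.0991 and 0.0516 without mouse 1 and mouse 2), and *Mfsd12*, a lysosomal cysteine importer, fell by 0.49 (0.00276). In *D/F* these 3 were at 0.68, -0.48 and -0.35 (limma adjusted p = 0.193, 0.0722 and 0.166, and 0.0112, 0.0272 and 0.0396 with the block).

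Of 11 mitochondrial carriers 4 fell and 1 rose in *T/F*, 1 fell in *D/F*, and 5 fell and 1 rose in *D/F* with the mouse as a block. Of all genes 17.6%, 6.51% and 18.0% fell in these fits. *Slc25a12*, a carrier of aspartate and glutamate, fell from 167 ± 19.1 to 48.9 ± 6.66 TPM in *D/F* (log2 difference -1.76, limma adjusted p = 0.00637) and from 170.2 ± 9.45 to 66.8 ± 5.94 TPM in *T/F* (-1.34, 0.000449). In *T/F* the glutamate carrier *Slc25a22* fell by 0.90 (limma adjusted p = 0.00751, and 0.0732 without mouse 2), the serine carrier *Sfxn1* by 0.79 (0.000711) and the ornithine carrier *Slc25a15* by 0.52 (0.00382, and 0.0505 without mouse 2). In *D/F* these 3 were at -0.67, -1.21 and -0.37, with limma adjusted p-values of 0.0629, 0.0608 and 0.133 without the block and 0.0355, 0.0116 and 0.0370 with it. All 3 also passed in *D/F* in a fit that shared its variance with *T/F* (0.0148, 0.00484 and 0.0149), and *Slc25a22* and *Sfxn1* passed in further settings, such as a filter at 5 TPM (0.0473 and 0.0495).

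Of 30 measured genes of amino acid sensing upstream of mTORC1, 3 rose and 0 fell in *D/F*, and 8 rose and 4 fell in *T/F*, with medians of 0.13 and 0.19, and with the block the *D/F* counts were 7 and 1. The rises were near the shares of all genes in *T/F* (25.8%) and in *D/F* with the block (21.4%). *Sesn3*, of the family of sestrins that restrain mTORC1, rose from 7.37 ± 3.68 to 38.8 ± 10.4 TPM in *D/F* (log2 difference 2.30, limma adjusted p = 0.0134) and from 6.01 ± 0.996 to 27.7 ± 2.39 TPM in *T/F* (2.04, 0.000398). *Castor2*, a relative of the arginine sensor CASTOR1, rose by 1.89 in *D/F* (limma adjusted p = 0.0458, and 0.0605 with a pseudocount of 0.1) and by 1.52 in *T/F* (0.0161, and 0.115 without mouse 2). *Rraga*, a GTPase that brings mTORC1 to the lysosome, rose by 0.71 in *D/F* (limma adjusted p = 0.0470, and 0.115 when rescaled to the median gene) and by 0.57 in *T/F* (0.00121). In *T/F* the sestrin *Sesn2* rose by 0.58 (0.00751, and 0.0774 without mouse 1) and *Nprl2*, a subunit of the GATOR1 brake on mTORC1, rose by 0.65 (0.000801), while *Fnip2*, a folliculin partner, fell by 0.66 (0.00240). In *D/F* these 3 were at 0.66, 0.56 and -0.39 (limma adjusted p = 0.231, 0.0777 and 0.330, and 0.0271, 0.0181 and 0.0305 with the block). Without the block, no *D/F* call in any of these lists was kept without mouse 1 or mouse 3.

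Of 21 response genes of amino acid starvation 0 passed in *D/F*, with 1 at an unadjusted p under 0.05, and 2 rose and 5 fell in *T/F*, with medians of -0.04 and -0.08. With the mouse as a block 4 rose and 5 fell in *D/F*. Of all genes 25.8% rose and 17.6% fell in *T/F*, and 21.4% and 18.0% in *D/F* with the block. *Chac1*, which degrades glutathione, rose in *T/F* from 13.8 ± 1.26 to 24.1 ± 2.17 TPM (log2 difference 0.76, limma adjusted p = 0.00239, and 0.435 in a fit that shared its variance with *D/F*). *Aldh18a1*, of proline synthesis, fell there by 0.60 (limma adjusted p = 0.00496) and *Wars*, the tryptophanyl-tRNA synthetase, by 0.51 (0.00625, and 0.0735 without mouse 1). In *D/F* *Chac1* was at a log2 difference of 1.16 (limma adjusted p = 0.382, and 0.0146 with the block), *Aldh18a1* at -0.39 (0.396 and 0.0386) and *Wars* at -0.59 (0.114 and 0.0132).

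Among 13 enzymes that use imported amino acids 3 rose and 4 fell in *T/F* and 0 passed in *D/F*, where 4 were higher and 2 lower at an unadjusted p under 0.05 and as many passed with the block. These counts stand beside the same shares of all genes, 25.8% higher and 17.6% lower in *T/F* and 21.4% and 18.0% in *D/F* with the block. The unadjusted *D/F* counts stand beside 4712 of 15501 genes in either direction. *Bcat1*, which transaminates branched-chain amino acids, fell from 24.2 ± 1.41 to 3.95 ± 0.137 TPM in *T/F* (log2 difference -2.35, limma adjusted p = 0.000242), and *D/F* cells went from 25.8 ± 17.7 to 4.33 ± 4.12 TPM (-2.35, 0.144, and 0.00524 with the block). *Glul*, glutamine synthetase, rose from 50.2 ± 3.58 to 101 ± 5.54 TPM in *T/F* (0.99, limma adjusted p = 0.000690), and was at 65.5 ± 27.3 and 128 ± 27.4 TPM in *D/F* (1.00, 0.0869, and 0.0105 with the block). *Odc1*, the first enzyme of polyamine synthesis from ornithine, fell by 0.67 in *T/F* (limma adjusted p = 0.000876) and did not pass in *D/F* (-0.27, 0.676).

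**Figure D4:**
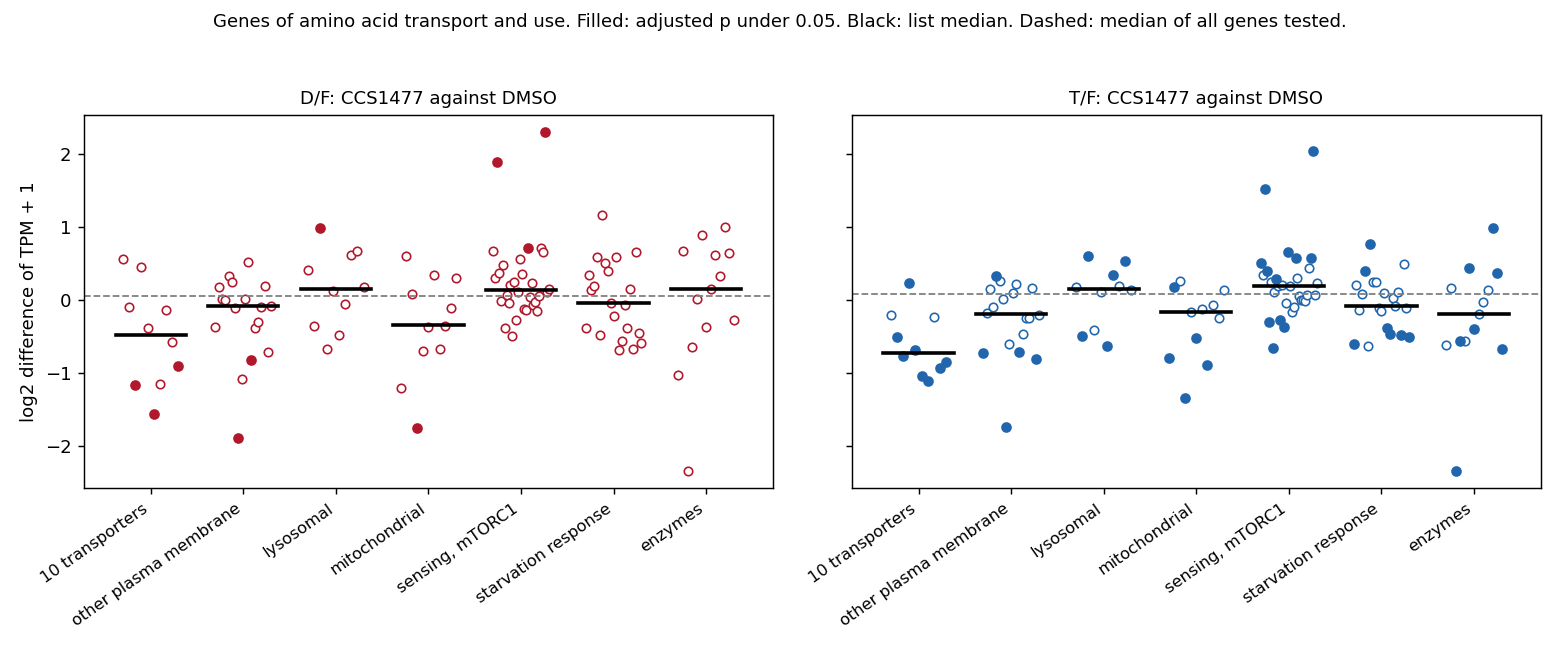
Log2 difference between CCS1477 and DMSO for each gene of the 10 transporters and of 6 further lists of amino acid transport and use, in *D/F* and *T/F*, with filled points at an adjusted p under 0.05, black bars for list medians and a dashed line for the median of all genes tested. The median of the 10 transporters is the lowest of the lists in both genotypes, at -0.48 and -0.73.

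Of the transcription factors known to act on these genes, *Myc* fell in each mouse, from 378 ± 84.7 to 19.2 ± 1.48 TPM in *D/F* (log2 difference -4.21, limma adjusted p = 0.00131) and from 268 ± 40.9 to 23.8 ± 4.01 TPM in *T/F* (-3.44, 0.000311). *Atf4* did not pass in *D/F* (0.14, limma adjusted p = 0.889) or in *T/F* (-0.13, 0.437), with means of 325 ± 162 and 349 ± 146 TPM in *D/F* and 327 ± 43.3 and 297 ± 29.4 TPM in *T/F*. *Nfe2l2*, which encodes NRF2, the factor of the oxidative stress response, rose in *T/F* from 83.2 ± 1.85 to 103 ± 1.40 TPM (0.31, limma adjusted p = 0.00736), a call lost without mouse 1 or 2 (0.0672 and 0.0793) and in median-rescaled values (0.0509). In *D/F* it was at 79.5 ± 6.41 and 113 ± 28.0 TPM (0.48, 0.180, and 0.0437 with the block).

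The genes whose levels followed those of a transporter most closely across the 12 libraries were named by Pearson r of log2(TPM + 1) among the 11604 genes that averaged 5 TPM or more, as a description, since libraries share mice and treatments. For *Slc7a5* these were *Ppa1* (0.981), *Got1* (0.979) and *1810009A15Rik* (0.977). For *Slc7a1* they were *Golt1b* (0.993), *Larp4* (0.992) and *Parl* (0.992). For *Slc7a11* they were *Gm15879* (0.944), *Ogg1* (0.934) and *Zfp398* (0.931), and its highest likeness was below that of the other genes.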

How the data were processed

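RNA-seq was analysed for 12 libraries, 3 mice of each genotype with each treatment, grouped by the sample labels. The authors deposited TPM per gene, made with kallisto on mm10 per the submitters' processing notes and processed in AltAnalyze per the paper. The annotation and the versions are not given in the sources used here. The table holds 15651 genes, of which 15252 have a symbol, and every gene reaches 2.00 TPM in a library, so low genes had been left out. Libraries sum to 914204 to 931697 TPM. TPM keeps no read numbers, so depth is unknown beyond the paper's statement and precision is the spread between mice.

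Genes averaging 1 TPM or more in a group compared were tested on log2(TPM + 1) with limma 3.58.1 (R 4.3.3), without trend, two-sided, with Benjamini-Hochberg adjustment. The smallest p of an exact permutation test of 3 against 3 is 0.1, so it could not pass. The DMSO and CCS1477 libraries of a number are from 1 mouse per the labels, and their deviations from group means correlated across genes at 0.337 to 0.650, against at most 0.130 between mice. Replicates of a group correlated at 0.947 to 0.991 and none were identical. No batch is given in the labels. The fits were tested on simulated data.

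Members and gene lists were chosen with earlier results of these data known. Named were all 10 members, *Myc*, *Atf4* and *Nfe2l2*, per list at most 4 genes passing alike in both genotypes and 3 more passing in *T/F*, each by fold change, and the 3 genes most like *Slc7a5*, *Slc7a1* and *Slc7a11*. Positions are from GENCODE vM21 (10 of 10 matched). Alternatives tried were pseudocount 0.1, filtering at 5 TPM or not at all, median rescaling, quantile normalization, a trend, a shared fit of 4 groups, the mouse as a block and leaving out each mouse. Leaving out a mouse together with the block was added after seeing the data. No comparison of proteins was run.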

Additional observations from a re-analysis of the deposited data

How the results depend on the processing

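With the mouse as a replicate block, 5 transporters passed lower and 1 higher in *D/F*, against 3 and 0 without it. Of all genes 18.0% and 21.4% did with the block, and 6.51% and 5.14% without it. In *D/F* 1 passed higher also under quantile normalization, with a trend and in the shared fit of 4 groups. Of 15501 genes 1531, 1006 and 2706 did so in these fits. Leaving out a mouse gave 0 to 4 lower in *D/F* (0 to 5 with the block), where 0 to 1647 of all genes fell (0 to 2307 with the block). It gave 0 higher in *T/F*, with or without the block, where 1748 to 2921 of all genes rose (2761 to 3358 with the block). Median rescaling and the shared fit also gave 0 higher in *T/F*, where 3129 and 2112 of 15256 genes rose. In that shared fit, which lends *T/F* the wider spread of *D/F*, *Slc7a5* and *Slc3a2* did not pass in *T/F* (limma adjusted p = 0.101 and 0.0527), nor did *Slc38a9* (0.131), *Slc38a11* (0.152), *Sesn2* (0.132), *Aldh18a1* (0.0724), *Odc1* (0.122) or *Nfe2l2* (0.170). Over both genotypes 4 to 7 passed lower when a mouse was left out, as did 2478 to 3521 of all genes. Quantile normalization there took *Slc7a5* and *Slc1a5* to limma adjusted p-values of 0.0634 and 0.160. At more than 2-fold the *T/F* counts were 2 lower and 0 higher, beside 717 and 401 of 15256 genes. In the 250 bases before the start alone, 1 promoter held TTGCATCA and 1 held TGATGNAAN.

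Signs turned in values that had not passed. In *D/F* the log2 difference of *Slc1a5* was 0.0632 under quantile normalization, and that of *Slc7a11* ran from -0.259 without mouse 3 to 0.0335 without mouse 1, with or without the block. Over both genotypes *Slc1a4* ran from -0.0636 without *D/F* mouse 2 to 0.309 without *T/F* mouse 1. The difference between genotypes for *Slc7a1* was -0.00034 after median rescaling and ran from -0.110 without *D/F* mouse 2 to 0.195 without *D/F* mouse 3. For *Slc7a6* it ran from -0.0132 without *D/F* mouse 2 to 0.0935 without *T/F* mouse 3, and for *Slc7a11* from -0.263 without *D/F* mouse 1 to 0.0293 without *D/F* mouse 3. The cause was not tested.

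Over all genes the *T/F* split of 3935 higher and 2685 lower was 3129 and 3164 after median rescaling, and the *D/F* split of 796 and 1009 was 1531 and 1285 under quantile normalization. No paired fit was possible between genotypes, whose numbers are different mice. With 3 mice in each genotype, TPM without read numbers and no spike-in, changes in total RNA per cell were not measured.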
